A study of Mus musculus with 2 samples.

Results

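Checkpoint-low CD8 T cells of a mouse melanoma were compared between the spatial barcodes ZC1 and ZC2, which mark separate regions of the tumour. The cells were chosen by measured UMIs. A cell was taken with at least 1000 gene UMIs (unique molecular identifiers, each standing for 1 captured RNA molecule), at least 500 genes and at most 10% mitochondrial UMIs. It needed at least 3 UMIs of the CD3 genes Cd3d, Cd3e and Cd3g together, at least 2 of Cd8a and Cd8b1, and less than 1000 CPM (counts scaled to a total of 1000000) of the macrophage genes C1qa, C1qb and C1qc. The summed checkpoint genes Pdcd1, Havcr2, Lag3 and Tnfrsf9 had to stay below 500 CPM. The rule found 77 cells in these regions, 49 in ZC1 and 28 in ZC2, of 4236 cells kept in all. Of the 128 checkpoint-low CD8 T cells of the library, 16 more carried ZC3 and 35 could not be placed.

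B78ChOVA melanoma cells were injected under the skin of the flank in 50 µl of a gel matrix, and the tumours were taken after 16 days. Living tumour tissue was cut at about 160 µm, cells of selected areas were tagged with light-directed DNA barcodes (ZipSeq), and the immune cells were then dissociated, sorted and captured in 10x Genomics droplets. The 2 libraries, 1 of gene expression and 1 of spatial barcodes, came from the same cells and share their cell barcodes in 1 matrix, so each region is 1 set of cells with no replicate. The labels name no mouse strain, sex, number of tumours or tissue behind each barcode, and all cells share the same tumour line, site and day.

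T cells that recirculate carry the chemokine receptor Ccr7, which guides them to lymph nodes, and the sphingosine receptor S1pr1, with which they leave tissue. The transcription factor Klf2 drives S1pr1, and the interleukin 7 receptor (Il7r) keeps naive and memory cells alive. Activated T cells in a tumour lose much of this programme, divide, load granzymes and, under lasting antigen, express Tox and inhibitory receptors.

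Checkpoint-low cells of ZC1 had more RNA of several genes of naive, memory and recirculating T cells than those of ZC2. Satb1, Klf2, Il7r and S1pr1 stood 3.74 to 7.95 times higher in ZC1, while Ccr7 had a ratio of 0.712 with an interval across 1. For Klf2 the log2 ratio was -0.13 with each cell thinned to an equal depth, against 2.04 with all UMIs. The thinned value rests on few cells with a UMI, a slightly larger share of ZC1 than of ZC2 cells. The ZC2 cells had more RNA of Gzmb (granzyme B), Batf, Tox, Id2 and Cxcr6, with ratios of ZC1 over ZC2 between 0.250 and 0.479, and more of the cell cycle genes. Deeply read cells weighed on these sums: without the 3 deepest of each region the log2 ratio of Gzmb was -0.28, against -1.998, and the median of the cell cycle genes -0.26, against -1.65. With checkpoint genes below 200 CPM the cell cycle median was -0.016. In all, 3359 genes could be compared, of T cells or not, and most lay within 2-fold. A ratio of at least 2 was found in 4.35% of them and one of at most 0.5 in 4.7%. The median ratio was 0.957, with 1472 genes above 1 and 1887 below. A gene was compared when it had at least 30 UMIs over both regions and at least 3 expected in the smaller set. Ratios are ZC1 over ZC2 of summed UMIs scaled to CPM. Bounds in parentheses are exact 95% intervals. For ratios they cover the counting error of UMIs only, and for shares of cells that of the number of cells only. With 1 set of cells per region no test was possible, so values are described as higher or lower and no gene is called changed. CPM are shares of a cell's RNA, so a higher share and less of other RNA cannot be told apart.

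The regions differed in cells and in depth. The 49 ZC1 cells held 386972 gene UMIs, with a lowest of 2700, a median of 5595 and a highest of 33916 per cell. The 28 ZC2 cells held 361808, with a lowest of 2812, a median of 6524 and a highest of 59976. The 3 deepest cells held 21.2% of the ZC1 UMIs and 43.3% of the ZC2 UMIs, so sums over ZC2 lean on few cells. Mitochondrial UMIs had a median of 5.14% in ZC1 and 4.15% in ZC2. The median cell had 873 spatial barcode UMIs in ZC1 and 806 in ZC2.

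A cell's region was the barcode whose share of its spatial UMIs, divided by the share in barcodes with 10 to 100 gene UMIs, was at least 1.5 times the next, with at least 30 spatial UMIs. Those nearly empty barcodes carried 15.6% ZC1, 26.4% ZC2 and 58.0% ZC3. By raw share, ZC1 cells held 46.0% ZC1 and 31.8% ZC3 UMIs, and ZC2 cells 56.0% ZC2 and 33.0% ZC3. The member closest to the limit had a fold of 1.503 and the nearest cell outside one of 1.495. For the checkpoint genes the highest member had 490 CPM and the lowest cell outside 510. For C1q the highest member had 914 CPM and the lowest cell outside 1143, and 31 cells of these regions were left out for C1q.

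The genes used by the rule describe the cells and are no finding. The CD3 genes summed to a lowest of 4, a median of 18 and a highest of 61 UMIs per cell in ZC1, and of 7, 29 and 146 in ZC2. Cd8a, the CD8 coreceptor chain, was found in 46 of 49 ZC1 cells at 488 CPM and in 27 of 28 ZC2 cells at 473 CPM. No checkpoint UMI was found in 42 members, 29 in ZC1 and 13 in ZC2. Among these genes Lag3, an inhibitory receptor, stood at 54.3 CPM in ZC1 and 133 in ZC2. The label of CD8 T cells was also met by genes that the rule did not use. The constant region gene Trac of the T cell receptor was found in 48 of 49 and 27 of 28 cells, and Trbc2 in 45 of 49 and 28 of 28. Cd4 and Foxp3, which mark helper and regulatory T cells, had 2 UMIs each in 1 ZC1 cell and 0 in ZC2. The NK gene Ncr1, the B cell genes Cd79a and Ms4a1, the dendritic genes Xcr1 and Flt3 and the pigment gene Tyrp1 had 0 UMIs in both regions. The NK gene Klrb1c had 4 UMIs in 3 ZC1 cells, and the pigment genes Dct and Mlana each had 2 UMIs in ZC1 and 1 in ZC2. The dendritic gene Cd209a had 24 UMIs, all in 1 ZC2 cell. Other genes of these cell types were found more widely. The class II gene H2-Ab1 was in 20 of 49 ZC1 and 13 of 28 ZC2 cells, at 1411 and 1581 CPM. Tyrobp of myeloid and NK cells was in 14 of 49 and 7 of 28. The gamma delta T cell genes Trdc and Tcrg-C1 had 1 and 3 UMIs in ZC2 and 0 in ZC1. The highest Cd8a count of ZC1, 13 UMIs, was in a cell with 36 UMIs of Siglech, a gene of plasmacytoid dendritic cells.

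Checkpoint-low cells made up a larger share of the CD8 T cells in ZC1 than in ZC2. They were 49 of 61 CD8 T cells in ZC1, 80.3% (68.2–89.4), 28 of 49 in ZC2, 57.1% (42.2–71.2), and 16 of 38 in ZC3, 42.1% (26.3–59.2). These intervals cover the number of cells only. No region had a replicate, so the intervals do not compare the regions, whether they overlap or not. The median depth of all CD8 T cells was 5616 UMIs in ZC1, 11106 in ZC2 and 9779 in ZC3. The checkpoint limit is part of the rule, so these shares are a description, and the part of depth in them was not tested.

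**Figure D1:**
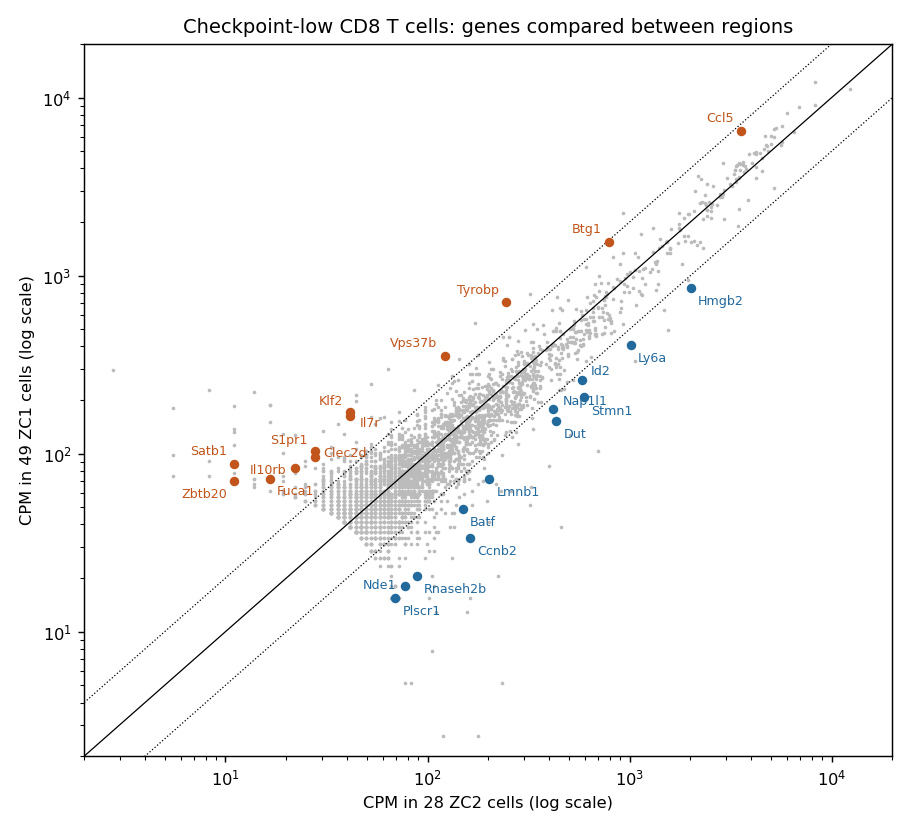
Level of each compared gene in the 28 ZC2 cells (x axis, CPM, log scale) and the 49 ZC1 cells (y axis, CPM, log scale). Each point is 1 of 3359 genes; the solid line marks equal levels and the dotted lines a ratio of 2 and of 0.5. Orange and blue points are the 12 highest and 12 lowest genes by the naming rule, from Satb1 at 87.9 against 11.1 CPM to Ccnb2 at 33.6 against 163 CPM.

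Among the naive, memory and exit genes, 13 of 19 could be compared. A ratio of at least 2 was found in 5 of them, Satb1, Klf2, Il7r, S1pr1 and the adhesion receptor gene Cd44, against 4.35% of all compared genes. A ratio of at most 0.5 was found in 1, Dapl1, against 4.7% of all compared genes. The median ratio of the list was 1.53, and 10 of the 13 lay above 1, against 1472 of all 3359 compared genes. Summed over the list, each ZC1 cell had a lowest of 197, a median of 3069 and a highest of 8321 CPM, against 221, 2461 and 7755 CPM in ZC2. The ranges overlap almost fully, so the difference is one of the middle of each set. The 16 ZC3 cells had a median of 4071 CPM, above both. In ZC1 and ZC2 the list sum leaned on Ly6c2, also a monocyte gene, and Ltb. These stood at 897 and 556 CPM of the list's 2770 in ZC1, and at 674 and 528 of 1965 in ZC2.

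S1pr1, the exit receptor, lies at chr3:115710433-115715072. It was found in 23 of 49 ZC1 cells at 39.7 to 600 CPM and in 7 of 28 ZC2 cells at 56.8 to 431 CPM. The sums were 103 and 27.6 CPM, a ratio of 3.74 (1.84–8.39), and no ZC1 cell held more than 10.0% of the UMIs. In macrophage-gene cells, those with C1q genes of at least 5000 CPM and no CD3 UMI, S1pr1 was nearly absent, at 3.85% of 234 ZC1 cells although these had a median of 23975 UMIs.

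Il7r, at chr15:9505788-9530176, was found in 26 of 49 ZC1 cells at 79.3 to 1109 CPM and in 6 of 28 ZC2 cells at 16.7 to 1094 CPM. Its ratio was 3.93 (2.21–7.43), from 163 against 41.5 CPM. The highest cells of both regions were alike, while the median where found was 349 CPM in ZC1 and 211 in ZC2. The share of cells with the gene also differed. In checkpoint-high CD8 T cells Il7r was found in 0 of 12 ZC1 and 1 of 21 ZC2 cells.

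Satb1, a chromatin organiser of developing and naive T cells, lies at chr17:51736187-51833290. It was found in 19 of 49 ZC1 cells at 29.5 to 1425 CPM, and in 4 of 28 ZC2 cells with 1 UMI each. The sums were 87.9 and 11.1 CPM, a ratio of 7.95 (2.83–30.8), the highest of the 12 genes ranked highest in ZC1. Its level in free RNA, the sum of barcodes with 10 to 100 gene UMIs, was 2.92 CPM.

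Klf2, at chr8:72319033-72321656, was found in 22 of 49 ZC1 cells and 6 of 28 ZC2 cells, at 171 and 41.5 CPM, a ratio of 4.11 (2.32–7.76). Free RNA held 231 CPM of Klf2, above both regions, and 75.6% of the macrophage-gene cells of ZC1 had a UMI. In those cells too Klf2 was higher in ZC1, at 269 against 120 CPM. With each member thinned to 1000 UMIs, Klf2 was found in 14.3% of ZC1 and 10.7% of ZC2 cells and its log2 ratio was -0.13. The part of free RNA in the difference was not tested.

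The other members of the list were closer. Tcf7, the factor of stem-like memory T cells, was at 127 and 82.9 CPM, a ratio of 1.53 (0.95–2.49). Foxp1, which keeps T cells quiescent, had a ratio of 1.87 (1.16–3.09). Ccr7, the lymph node homing receptor, had 0.712 (0.348–1.43) and Slamf6 0.935 (0.468–1.87), with intervals across 1. Dapl1 had 0.343 (0.188–0.600), but 59.2% of its ZC2 UMIs came from 1 cell, and without cells with dsRed its log2 ratio was 1.96. Ltb, which encodes lymphotoxin beta, had 1.05 (0.862–1.29).

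**Figure D2:**
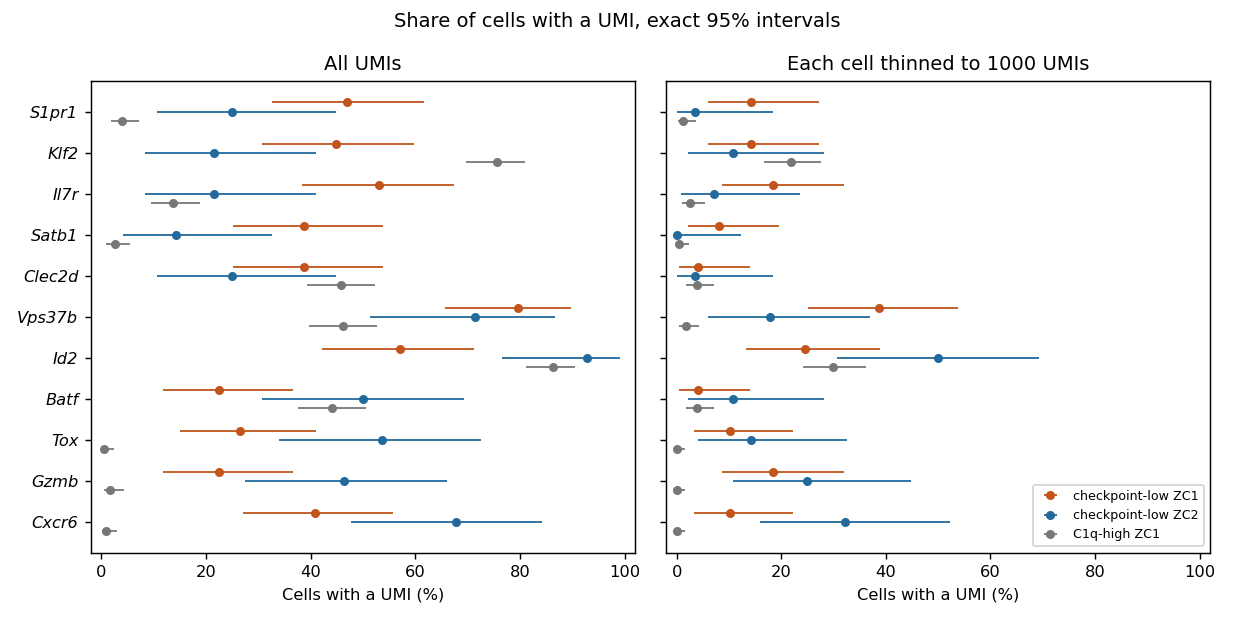
Share of cells with at least 1 UMI of 11 genes (x axis, %) in the 49 ZC1 members (orange), the 28 ZC2 members (blue) and the 234 macrophage-gene cells of ZC1 (grey, C1q-high), with all UMIs on the left and each cell thinned to 1000 UMIs on the right. Bars are exact 95% intervals; Klf2, Id2, Clec2d, Vps37b and Batf were common in macrophage-gene cells before thinning, Satb1, Tox, Gzmb and Cxcr6 were not.

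The other genes ranked highest in ZC1 were Zbtb20, Fuca1, Il10rb, Clec2d, Vps37b, Tyrobp, Btg1 and Ccl5. Zbtb20, a zinc finger transcription factor, was found in 12 of 49 and 4 of 28 cells, with a ratio of 6.31 (2.20–24.8). Btg1, an inhibitor of proliferation, was found in every member cell. Its level per cell had a lowest of 433, a median of 1560 and a highest of 6296 CPM in ZC1, against 104, 990 and 4164 CPM in ZC2, and its ratio was 1.97 (1.71–2.27). Vps37b, a subunit of the ESCRT-I sorting complex, was found in 39 of 49 and 20 of 28 cells, with a ratio of 2.91 (2.06–4.19). Clec2d, a ligand of NK receptors, had a ratio of 3.46 (1.69–7.80), against 1.49 (1.21–1.84) in macrophage-gene cells, and Il10rb, a chain of the interleukin 10 receptor, one of 3.74 (1.69–9.39). Fuca1, a lysosomal fucosidase, and Tyrobp, an adaptor of myeloid and NK receptors, were at 93.5 and 1990 CPM in free RNA, above their levels of 72.4 and 711 CPM in ZC1.

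Ccl5 is a chemokine of memory and effector CD8 T cells. Each ZC1 cell had a lowest of 0, a median of 9246 and a highest of 25034 CPM, and each ZC2 cell a lowest of 0, a median of 3981 and a highest of 37567 CPM. Summed, the ratio was 1.83 (1.71–1.96), from 6504 against 3552 CPM. The narrow interval reflects many UMIs and not many cells. Weighting cells equally gave a log2 ratio of 0.19, and restricting members to checkpoint genes below 200 CPM gave -0.02. Of 15 T cell cytokines and chemokines, 7 were compared, with a median ratio of 1.25. Ccl4, a chemokine of activated T cells and macrophages, had a ratio of 1.83 (1.30–2.62) at 258 CPM in ZC1, below the 1165 CPM of free RNA. Ifng, which encodes interferon gamma, had 1.25 (0.856–1.84) and Xcl1, which attracts dendritic cells, 0.748 (0.509–1.09).

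Of 9 compared cytokine receptor genes, 2 had a ratio of at least 2, against 4.35% of all compared genes. These were Il7r and the interferon receptor chain gene Ifnar2, at 2.18 (1.16–4.30). Of the 9, 8 lay above 1, against 1472 of all 3359 compared genes. The exception was Il2rb, the beta chain of the interleukin 2 and 15 receptors, at 0.598 (0.430–0.827). The median ratio was 1.40.

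The genes higher in ZC2 included regulators and effectors of activated T cells. Id2, a regulator that promotes effector differentiation, lies at chr12:25093799-25097140. Its UMIs were found in 28 of 49 ZC1 cells and 26 of 28 ZC2 cells. Its level per cell had a median of 156 and a highest of 2222 CPM in ZC1 against 485 and 2289 CPM in ZC2, and the lowest was 0 in both. Summed, the ratio was 0.445 (0.347–0.568). After thinning, Id2 was found in 24.5% (13.3–38.9) of ZC1 and 50.0% (30.7–69.3) of ZC2 cells, and in 29.9% of the macrophage-gene cells of ZC1. In those cells Id2 was not lower in ZC1, with a ratio of 1.18 (1.12–1.25).

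Batf, an AP-1 factor of effector and exhausted T cells, lies at chr12:85686669-85709087. UMIs were found in 11 of 49 and 14 of 28 cells, at 49.1 and 149 CPM, a ratio of 0.329 (0.184–0.564). In macrophage-gene cells of these regions Batf stood at 25.3 and 23.1 CPM. Tox, a factor of exhausted T cells, lies at chr4:6686353-6991557. It was found in 13 of 49 ZC1 cells at up to 336 CPM and in 15 of 28 ZC2 cells at up to 1035 CPM, a ratio of 0.391 (0.229–0.647). Among macrophage-gene cells Tox was found in 1 of 234 in ZC1 and 0 of 231 in ZC2. Both genes were lower in ZC1, where Satb1 and S1pr1 were higher.

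The rule left a difference in those checkpoint genes, since 29 of 49 ZC1 and 13 of 28 ZC2 members had none of their UMIs. When members were limited to checkpoint genes below 200 CPM, Tox had a log2 ratio of -1.33, Batf -1.60, Id2 -1.32, Satb1 2.35 and Il7r 1.06, against -1.35, -1.60, -1.17, 2.99 and 1.97 with all members. At that limit S1pr1 was at 0.93 against 1.90, Klf2 at 1.30 against 2.04, Gzmb at -1.26 against -1.998 and Cxcr6 at -1.84 against -1.06. The median log2 ratio of the cell cycle genes was -0.016 there, against -1.65 with all members. The list of other inhibitory and exhaustion genes, which includes Tox, did not share a direction. Of 18 genes with a feature, 7 were compared, with a median ratio of 0.973. Its compared inhibitory receptor genes were lower in ZC1, Cd160 with a ratio of 0.401 (0.186–0.814) and Ctla4 with 0.595 (0.357–0.977). The activation-induced genes Rgs1 and Nr4a2 had 0.973 (0.772–1.23) and 1.36 (0.855–2.19).

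Gzmb, which encodes the protease granzyme B, lies at chr14:56258838-56262260. It was found in 11 of 49 ZC1 cells, at 29.5 to 2063 CPM with a median of 230 where found, and in 13 of 28 ZC2 cells, at 86.6 to 1802 CPM with a median of 486. The ratio was 0.250 (0.179–0.345), from 127 against 506 CPM. The UMIs were unevenly held: 1 ZC2 cell had 79 of 183 and 1 ZC1 cell 19 of 49, and both had dsRed. Without dsRed cells the log2 ratio was -2.57, and without the 3 deepest cells of each region -0.28, against -1.998 with all members. The other compared cytotoxic genes differed less. Nkg7, a granule membrane protein gene, was at 1672 and 1860 CPM, a ratio of 0.899 (0.806–1.00), Ctsw had 0.995 (0.803–1.23), Gzmk 0.853 (0.626–1.16) and Prf1, which encodes perforin, 0.712 (0.348–1.43). The 8 compared cytotoxic genes had a median ratio of 0.876, with 6 below 1, against 1887 of all 3359 compared genes. Gzmb was the only one at most 0.5, against 4.7% of all. The list sum per cell had a lowest of 1821, a median of 3883 and a highest of 10513 CPM in ZC1. In ZC2 these were 1164, 4718 and 8028 CPM.

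Cxcr6, a receptor of resident and tumour T cells for Cxcl16, was found in 20 of 49 ZC1 cells and 19 of 28 ZC2 cells, at 158 and 329 CPM, a ratio of 0.479 (0.346–0.658). After thinning it was found in 10.2% (3.40–22.2) and 32.1% (15.9–52.3) of cells, and in 0 of 234 macrophage-gene cells of ZC1, which allows a share of up to 1.28%. The remaining 11 compared homing receptors and integrins lay between 0.613 for Itgb7 and 1.68 for Ccr2, and the median of the list was 1.00. Cxcr3, a receptor for interferon-induced chemokines, had a ratio of 1.66 (1.02–2.77). For Ccr2, 48.1% of its ZC1 UMIs came from 1 cell, and its log2 ratio was -1.24 without class II cells.

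Exit and resident genes were also counted in the same cells. Any UMI of Ccr7, Lef1 or S1pr1 was found in 33 of 49 ZC1 and 18 of 28 ZC2 cells. Any of Cxcr6, Itgae or Itga1 was found in 24 of 49 and 20 of 28. Cells with exit genes alone numbered 17 in ZC1, 4 in ZC2 and 6 in ZC3. Cells with resident genes alone numbered 8, 6 and 5, cells with both 16, 14 and 4, and cells with neither 8, 4 and 1. At an equal 1000 UMIs per cell, resident genes were found in 10.2% (3.40–22.2) of ZC1 and 35.7% (18.6–55.9) of ZC2 cells, and exit genes in 24.5% (13.3–38.9) and 14.3% (4.03–32.7). The intervals overlapped in both cases. In the macrophage-gene cells of ZC1 the same counts gave 0.855% and 2.14%.

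In the checkpoint-high CD8 T cells of the same regions, 12 in ZC1 and 21 in ZC2, these effector genes had other ratios. Gzmb stood at 1034 against 590 CPM, a ratio of 1.75 (1.40–2.18), Cxcr6 at 1.59 (1.24–2.03) and Id2 at 1.25 (1.03–1.505), while Batf had 0.489 (0.288–0.791) and Tox 0.839 (0.508–1.34). The intervals of Gzmb, Cxcr6 and Id2 did not overlap those of the checkpoint-low cells. They cover counting error only and not the spread between cells, so they do not compare the classes. A difference between the classes was not tested, and the 3 deepest of the 12 cells held 52.2% of their UMIs.

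Ly6a, the surface antigen Sca-1 that interferons induce, was found in 38 of 49 and 26 of 28 cells. Each ZC1 cell had a median of 356 and a highest of 2052 CPM, each ZC2 cell a median of 778 and a highest of 2095 CPM, and the lowest was 0 in both. The ratio was 0.404 (0.333–0.488), and in macrophage-gene cells it was 1.17 (1.12–1.23). It was the only one of 18 compared type I interferon genes at most 0.5, against 4.7% of all compared genes. The list had a median of 1.05. Among 18 interferon gamma response genes 14 lay below 1, against 1887 of all 3359 compared genes. Their median was 0.926, near the 0.957 of all genes. The lowest were the immunoproteasome genes Psmb9 at 0.546 (0.436–0.683) and Psme2 at 0.592 (0.490–0.715). MHC class I genes were alike, with a median of 1.02 and H2-K1 at 3189 and 3214 CPM.

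**Figure D3:**
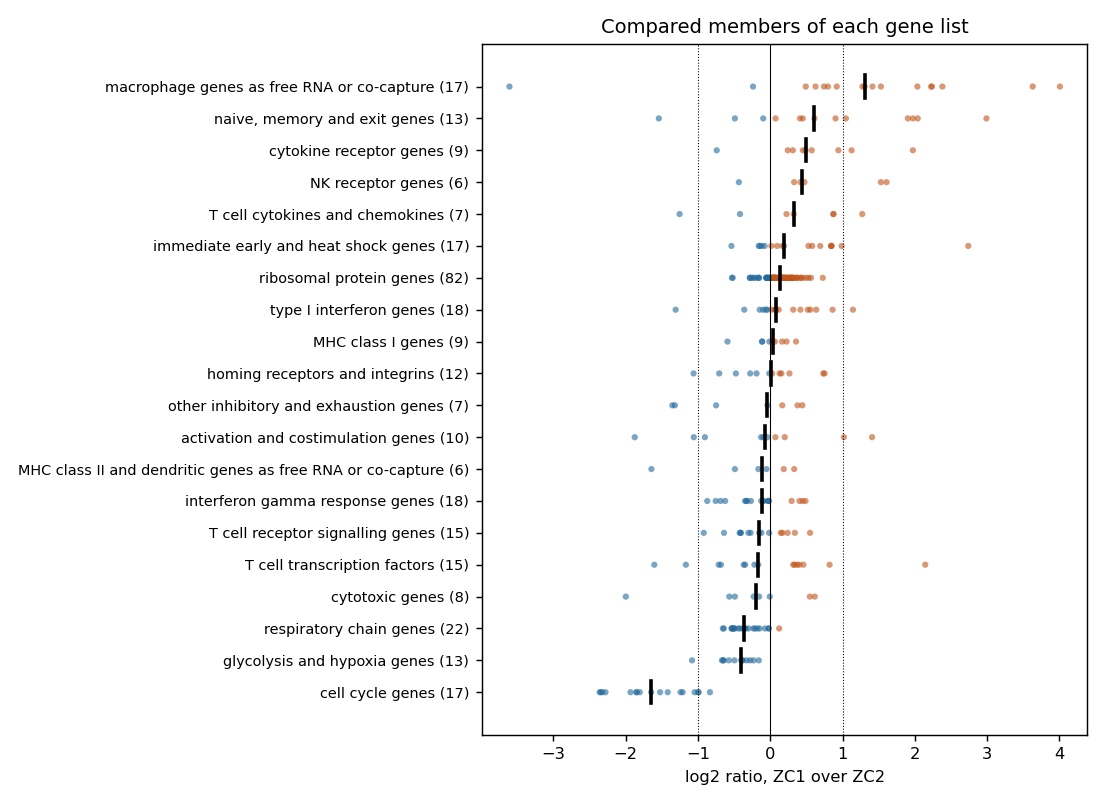
Ratios of the compared genes of each list (x axis, log2 of ZC1 over ZC2; number of genes in parentheses). Points are genes, orange above and blue below 0; black bars are list medians; dotted lines mark a ratio of 2 and of 0.5. The cell cycle list lies lowest, with 17 of 17 genes below 0, and the naive, memory and exit list is the highest of the T cell lists.

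Cell cycle genes were lower in ZC1. Of 17 compared, 15 had a ratio of at most 0.5, against 4.7% of all compared genes, none lay above 1, and the median ratio was 0.319. Ccnb2, the mitotic cyclin B2, lies at chr9:70407692-70421547. Only 3 of 49 ZC1 cells had it, at 131, 159 and 690 CPM, and 6 of 28 ZC2 cells, at 44.2 to 1075 CPM. Its ratio was 0.206 (0.104–0.380). Birc5, which encodes the mitotic protein survivin, had 0.200 (0.124–0.310) from 4 and 6 cells. Hmgb2, a chromatin protein of dividing cells, was found in 43 of 49 and 26 of 28 cells, with a ratio of 0.423 (0.370–0.483). Of the genes the naming rule gave outside the list, Dut and Rnaseh2b of nucleotide and DNA metabolism had 0.351 (0.256–0.477) and 0.234 (0.0931–0.518), Lmnb1 of the nuclear lamina 0.359 (0.223–0.561), Nde1 of the spindle 0.234 (0.0862–0.548) and the histone chaperone gene Nap1l1 0.424 (0.315–0.568).

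This difference belonged to few cells. At least 3 of the 7 genes Mki67, Top2a, Ccnb1, Ccnb2, Ccna2, Cdk1 and Birc5 were found in 3 of 49 ZC1 cells, 6.12% (1.28–16.9), and in 6 of 28 ZC2 cells, 21.4% (8.30–41.0), a rule set after the values were seen. The intervals overlapped. The 6 ZC2 cells had a median of 30484.5 UMIs against 6135.5 in the others and held 56.7% of all ZC2 UMIs, so they also weigh on every other summed level. Per cell, the summed list had a lowest of 599, a median of 2000 and a highest of 22720 CPM in ZC1, against 819, 2103 and 15288 CPM in ZC2. The medians nearly coincide, and the difference lies in the upper cells, with an upper quartile of 2567 CPM in ZC1 and 4305 in ZC2. Weighting cells equally gave a list median of -0.88 on the log2 scale, against -1.65 for sums, and leaving out the 3 deepest cells of each region gave -0.26. Limiting members to checkpoint genes below 200 CPM gave -0.016.

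Plscr1, a phospholipid scramblase that interferons induce, had a ratio of 0.224 (0.0753–0.560). Stmn1, which destabilises microtubules, had 0.348 (0.266–0.452), but 67.5% of its ZC1 UMIs came from 1 cell. The genes of energy metabolism leaned towards ZC2 with smaller differences. All 13 compared glycolysis and hypoxia genes lay below 1, against 1887 of all 3359 compared genes, with a median of 0.757. Of the 13, 1 was at most 0.5, against 4.7% of all. This was the mitochondrial hypoxia gene Higd1a at 0.472 (0.327–0.675). Ldha, the lactate dehydrogenase gene, had 0.629 (0.536–0.737), and 39.4% of its ZC2 UMIs came from 1 cell. Per cell the list had a lowest of 1959, a median of 4089 and a highest of 20984 CPM in ZC1, and of 2082, 5665 and 18263 CPM in ZC2. Of 22 respiratory chain genes 21 lay below 1, against 1887 of all 3359, with a median of 0.777. Ribosomal protein genes leaned the other way, with 62 of 82 above 1, against 1472 of all 3359. Their median was 1.10 and none was past 2-fold. Their sum per cell had a median of 302750 CPM in ZC1 and 245907 in ZC2.

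Genes of T cell receptor signalling differed little. All 15 compared lay between 0.528 for the adaptor gene Lcp2 and 1.46 for the phosphatase gene Ptprc, and the median was 0.898. Trbc2, a constant region of the receptor's beta chain, had 0.642 (0.568–0.725) and Trbc1, the alternative constant region, 1.27 (1.07–1.49). Trbc1 was found in 33 of 49 and 19 of 28 cells.

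The 150 bases before the start of Gzmb and of Ccnb2 are shown because Gzmb had the lowest ratio of the compared cytotoxic genes and Ccnb2 that of the 12 genes ranked lowest. Both were read from the RefSeq promoter table (GRCm38.p6, minus strand, printed 5′ to 3′). Genes and motifs were chosen after the values were seen. Capitals in Gzmb mark TGANTCA, a motif of the AP-1 family to which Batf belongs, and in Ccnb2 CCAAT, the motif of the factor NF-Y known from mitotic genes. The Gzmb window is chr14:56262335-56262484 and the Ccnb2 window chr9:70421555-70421704, outside the annotated genes by 75 and 8 bases.
Gzmb: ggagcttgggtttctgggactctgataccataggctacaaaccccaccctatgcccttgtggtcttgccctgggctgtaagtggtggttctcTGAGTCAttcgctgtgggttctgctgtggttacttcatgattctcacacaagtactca
Ccnb2: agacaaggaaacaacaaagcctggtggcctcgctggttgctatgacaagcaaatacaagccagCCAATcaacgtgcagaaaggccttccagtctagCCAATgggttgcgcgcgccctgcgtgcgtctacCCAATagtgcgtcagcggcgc
Searched on both strands, TGANTCA matched 1 time in Gzmb, as it did at least 1 time in 4.24% of 32851 promoter windows of this length. CCAAT matched 3 times in Ccnb2, and at least 1 time in 24.5% of windows. A match is a description of the sequence and does not show binding in these cells.

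Genes of other cells were present in some members. Macrophage genes had a median ratio of 2.47, with 10 of 17 compared at least 2, against 4.35% of all compared genes, among them the monocyte and macrophage gene Ms4a7 at 16.1 (6.63–50.8). Summed per cell, they had a lowest of 2468, a median of 5185 and a highest of 41308 CPM in ZC1, and of 2625, 4237 and 40906 CPM in ZC2. The class II genes H2-Aa, H2-Ab1, H2-Eb1 and Cd74 reached 5000 CPM in 5 of 49 ZC1 cells, 2 of 28 ZC2 cells and 0 of 16 ZC3 cells. The macrophage genes Csf1r and Adgre1 had UMIs in 6 and 3 of 49 ZC1 cells and in 2 and 1 of 28 ZC2 cells. Apoe and Lyz2 were found more widely, in 26 and 27 of 49 ZC1 cells and each in 13 of 28 ZC2 cells. Lyz2 stood at 2256 CPM in ZC1 and 931 in ZC2, against 6660 CPM in free RNA. Single cells held 43.9% of its ZC1 UMIs and 89.3% of its ZC2 UMIs. Without the 7 class II cells the macrophage median was 0.23 on the log2 scale, against 1.31 with them. Of these cells, 1 in ZC1 held all 36 ZC1 UMIs of Siglech, a gene of plasmacytoid dendritic cells. Single cells of this kind held the 64 ZC2 UMIs of the dendritic chemokine gene Ccl17 and the 24 of Cd209a, 91.2% of the ZC2 UMIs of Cxcl9, 86.5% of those of Cst3 and 68.2% of the ZC1 UMIs of Irf8. Atf3, Spp1, Zeb2, Fcgr3 and Lamp1, which the list rule also named, had 34.9% to 68.0% of their ZC1 UMIs in 1 cell.

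dsRed, a fluorescent protein gene in the reference (dsredexpress1), had UMIs in 2 of 49 ZC1 and 3 of 28 ZC2 members, and the 3 held 36.3% of the ZC2 UMIs. When class II and dsRed cells were both left out, 42 and 24 cells remained. In these, S1pr1 had a log2 ratio of 1.68, Il7r 1.79, Satb1 2.74, Klf2 1.31, Id2 -1.42, Batf -2.31, Tox -1.42, Gzmb -2.39 and Cxcr6 -1.02. The naive, memory and exit list had a median of 0.97 and the cell cycle list one of -0.94.

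**Figure D4:**
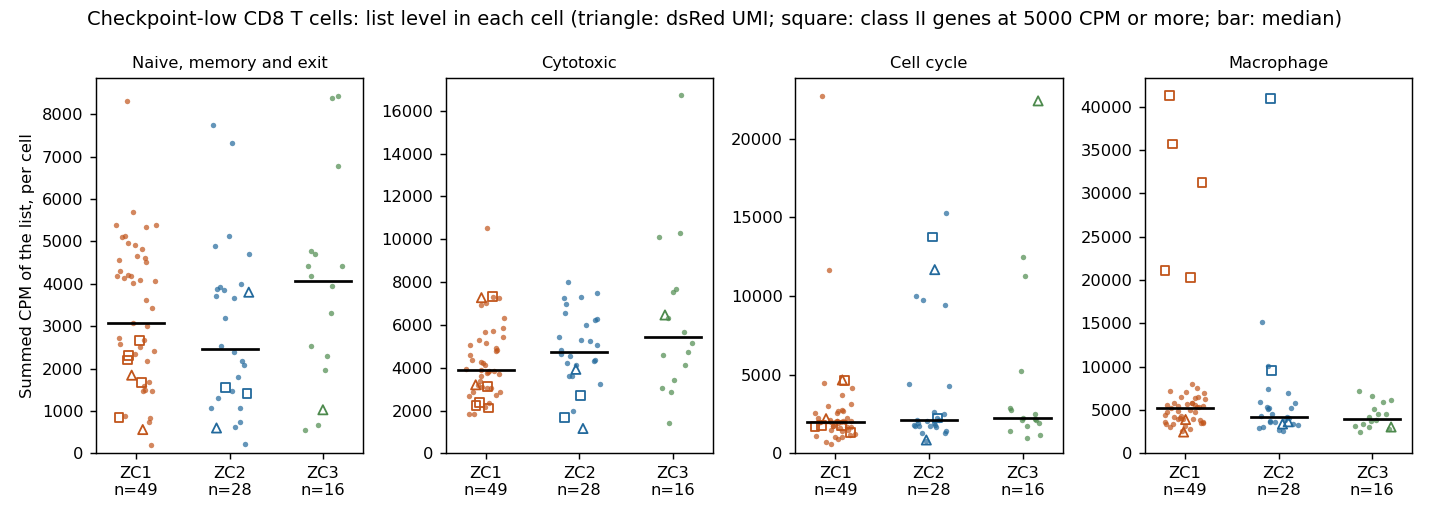
Summed CPM (y axis) of 4 gene lists in each checkpoint-low CD8 T cell of ZC1, ZC2 and ZC3 (x axis). Points are cells, triangles cells with a dsRed UMI, squares cells with class II genes of at least 5000 CPM (also where dsRed was found), and bars medians, which for the naive, memory and exit list are 3069, 2461 and 4071 CPM; the highest macrophage value of ZC1 and of ZC2 is a square, and the cell cycle values of most cells lie in a narrow low band.

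**Figure D5:**
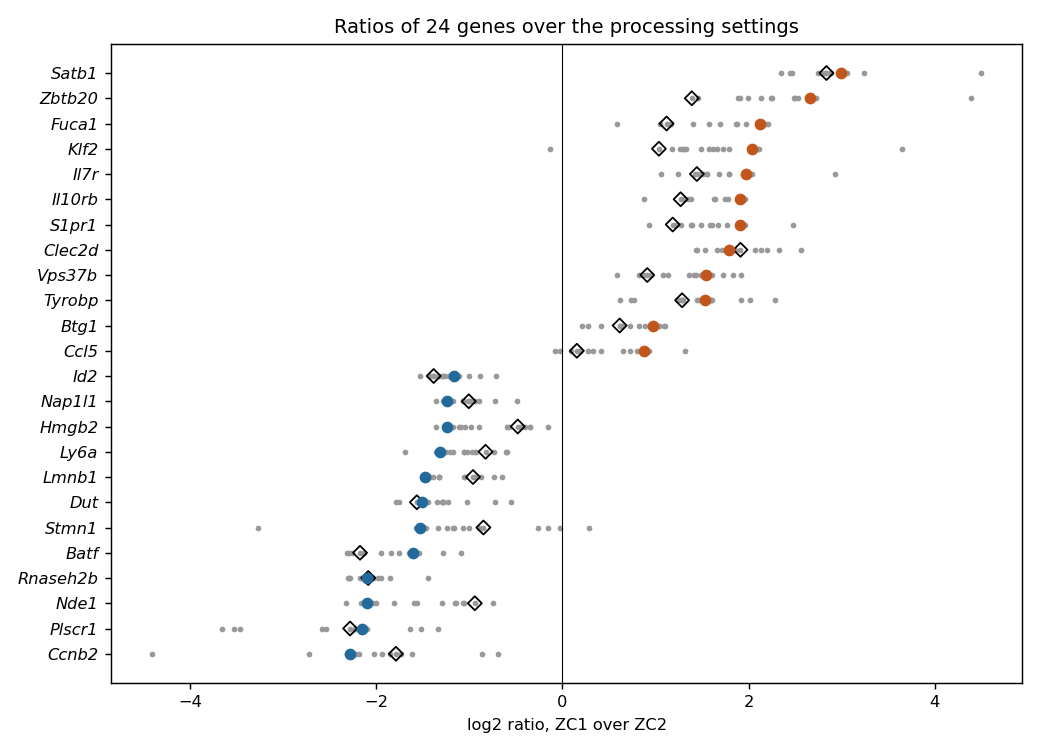
Log2 ratio of ZC1 over ZC2 (x axis) of the 24 named genes (y axis) with all members (filled), under each processing alternative that gave a value (grey) and as a mean of cells without class II and dsRed cells (diamonds). The genes were chosen for the filled values; 21 of 24 stayed on their side of 0 in every alternative shown, and Klf2, Ccl5 and Stmn1 crossed it.

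Across ZC3 the leading genes did not follow ZC1 or ZC2 alone. Klf2 stood at 196 CPM in ZC3, near the 171 of ZC1, while Il7r, at 44.6 CPM, and Satb1, at 22.3 CPM, were nearer the 41.5 and 11.1 of ZC2. Gzmb stood at 414, Id2 at 508, Ly6a at 1216 and Ccnb2 at 156 CPM, near ZC2, while Tox, at 75.7, and Cxcr6, at 183, were nearer ZC1. S1pr1, at 53.5, and Batf, at 89.1 CPM, lay between the regions. The 3 deepest of the 16 ZC3 cells held 71.1% of their UMIs, so these levels describe few cells.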

How the data were processed

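The authors' deposited matrix held raw UMI counts per gene and per spatial barcode for all 6794880 droplet barcodes, 117528298 gene and 14355102 spatial UMIs. The submitters' processing notes name Cell Ranger 4.0.0 and mm10, with settings not given in the sources used here. Members and gene lists were chosen with earlier results of these data known. Doublets were not called. Counts were summed over the cells of a region and scaled to CPM, with exact Poisson, conditional binomial and Clopper-Pearson intervals at 95%. A set at 0 was put at a floor of 3 counts. No test was made, as there is 1 library and no replicate. CD3, CD8, C1q, checkpoint and mitochondrial genes were left out of the ratios. Genes named were the 12 highest and 12 lowest, ranked by the bound nearest to 1, with a UMI in at least 20% of the cells of the higher region and at most 30% of its UMIs in 1 cell, and the 2 highest and 2 lowest of each of 24 lists. Other genes named from the lists, the genes plotted as shares, the promoters and the counts of cycling cells were chosen after values were seen. List genes without a feature were 3, and a few list genes are not reported here and were left out of every list, count and ratio. Thinning drew 1000 UMIs per cell with seed 1. Gene positions come from GENCODE annotation of GRCm38 (mm10), matched by the files' gene IDs. Scripts were tested on simulated data and used pandas 2.3.3, scipy 1.17.1, numpy 2.4.6, matplotlib 3.10.9 and Python 3.11.15. The ratios of the named genes, the list medians and the shares of genes past 2-fold were recomputed under other settings. These were 16 planned settings and 6 more chosen after the data were seen. Not every setting gave every one of these values.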

Additional observations from a re-analysis of the deposited data

Results flagged for a closer look

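UMIs of dsRed lay outside the genes compared by the lists and were found where the macrophage-gene cells had almost none. They were present in 7 of 128 checkpoint-low CD8 T cells, 5.47% (2.23–10.9), against 6 of 2265 macrophage-gene cells, 0.265% (0.0973–0.576), and 32 of 95 checkpoint-high CD8 T cells, 33.7% (24.3–44.1). The 7 cells were deep, with a median of 24286 UMIs against 6127 in the other 121.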

How the results depend on the processing

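Of the 24 ranked genes, 21 kept their direction in every alternative that gave a value, but they had been chosen for their ratios. An alternative gave a gene's value only with at least 10 UMIs and 3 expected, a limit set after sparse values were seen. The naive, memory and exit median kept its sign in 18 of 18 alternatives, from 0.26 to 1.17 on the log2 scale against 0.61. The cell cycle median kept its sign but was -0.016 with checkpoint genes below 200 CPM, -0.22 with a barcode fold of 2, -0.36 by plain barcode counts, -0.88 as a mean of cells, -0.56 thinned, -0.28 without cells with Cd4 or macrophage UMIs, -0.94 without class II and dsRed cells, -0.68 as a mean of those, and -0.26 without the 3 deepest cells of each region, against -1.65. The cytokine median was 1.32 with C1q below 300 CPM against 0.33, and the cytotoxic median -0.58 without dsRed cells against -0.19. Plain barcode counts left 12 and 11 cells, and leaving out cells with Cd4 or macrophage UMIs left 31 in ZC1.

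The share of genes at a ratio of at least 2 (4.35%) was 0.901% by plain counts, 0.658% thinned, 1.76% without cells with Cd4 or macrophage UMIs, 1.30% with at least 100 UMIs per gene, 9.62% with at least 10, 2.44% without class II cells, 2.41% without class II and dsRed cells and 2.27% as a mean of those. The share at most 0.5 (4.7%) was 1.88% with checkpoint genes below 200 CPM, 7.62% with C1q below 300 CPM, 2.07% with a barcode fold of 2, 2.88% by plain counts, 8.96% with at least 10 UMIs and 2.58% without the 3 deepest cells. At a fold of 1.5 the shares were 11.998% and 15.1%.

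Of 92 named genes, 39 changed sign in at least 1 alternative, 29 of the 49 under 2-fold and 10 of the 43 past it. Among the first, Ccr2 kept its direction in 10 of 21 alternatives, Ccr7 in 12 of 20, Xcl1 in 11 of 19, Lamp1 in 13 of 21 and Ccl5 in 19 of 21. For the genes past 2-fold and the macrophage list, the reversed log2 ratios were these, and the causes were not tested. With checkpoint genes below 200 CPM, Dapl1 was 1.52, Cst3 0.59 and Birc5 0.77. With C1q below 300 CPM, the macrophage median was -0.16, Fcgr3 -1.69 and Tnfrsf4 0.48. With a barcode fold of 2, Dapl1 was 1.62, Cst3 0.71, Stmn1 0.29 and Birc5 0.61. The macrophage median was -0.26 both by plain counts and thinned, and Klf2 was -0.13 thinned. Cst3 was 0.23 without the deepest cell of each region. Without cells with Cd4 or macrophage UMIs, Irf8 was -1.11 and Birc5 0.064. Without class II cells, Cxcl9 was 0.027 and Irf8 -1.26, and without dsRed cells Dapl1 was 1.96 and Cst3 0.84. Without both, Dapl1 was 1.01, Cxcl10 0.60 and Irf8 -1.80, and as a mean of those cells 0.23, 1.16 and -1.66. Without the 3 deepest cells Birc5 was 0.82.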

Other observations

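The dsRed cells also differed in sex-linked RNA. Of the 7 checkpoint-low cells with dsRed, 6 had UMIs of Xist, the RNA of the inactive X chromosome, and 1 had UMIs of the Y-linked genes Ddx3y, Eif2s3y, Kdm5d or Uty. That 1 cell lay in ZC2 and had both kinds. Of the 121 checkpoint-low cells without dsRed, 0 had Xist and 90 had a Y-linked gene. In checkpoint-high cells, 30 of 32 with dsRed and 2 of 63 without it had Xist. The origin of the dsRed cells is not given in the sources used here.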
